A study of Mus musculus with 2 samples.

Results

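The genes described are 9 genes of the T cell lineage, Lck, Zap70, Cd3e, Cd3d, Cd4, Cd8a, Cd28, Ctla4 and Tigit, and the data are where the transcription factor MEF2A sat around them in a B cell lymphoma. They form a list chosen by name, with earlier results of these data known. A peak was given to a gene when its summit lay inside the gene or within 50 kb of its transcription start site (TSS). Of 31497 peaks on mm10, 59 were given to these 9 of 21464 protein-coding genes. The 59 peaks make 64 pairs of a peak and a gene, because all 5 peaks of Cd3d were also given to Cd3e.

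MEF2A chromatin immunoprecipitation followed by sequencing (ChIP-seq) had been done in CH12.LX, an immortalized mouse B cell lymphoma line from a female of strain B10.H-2aH-4bp/Wts, in 2 biological replicates from separate biosamples. Both replicates belong to 1 group, for which the labels name no treatment, agent or engineered allele, so no test between groups was possible and every value below is a description. The main list is the authors' optimal set after filtering by irreproducible discovery rate (IDR), a measure of how alike peaks rank in repeated lists. Signal is a value the authors gave to every peak. It was used to rank peaks within a list, with rank 1 the strongest, and read depth is unknown. RNA was not measured in the series, so the lists say nothing of which of these genes the line transcribes.

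A T cell recognises antigen through a receptor that has no signalling domain of its own. The CD3 chains, among them those encoded by Cd3e and Cd3d, carry the signal into the cell; the SRC family kinase LCK, held at the coreceptors CD4 and CD8, phosphorylates them, and the kinase ZAP70 docks on the phosphorylated chains. CD28 adds a costimulatory signal, while CTLA4 and TIGIT are inhibitory receptors. MEF2 factors bind an AT-rich element and respond to calcium signals, and in developing T cells they are known for controlling Nr4a1. B cells use a parallel machinery, with CD79 chains, the kinase SYK and other kinases of the SRC family.

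The sequence at the 6 strongest mm9 peaks given to these genes is shown because it lets the factor's own element be looked for directly; genome sequence was used for mm9 only. Each line is the forward strand from 50 bp before to 50 bp after the summit, and capitals mark any exact match to 1 of 10 motifs.
Ctla4, chr1:60960102-60960202: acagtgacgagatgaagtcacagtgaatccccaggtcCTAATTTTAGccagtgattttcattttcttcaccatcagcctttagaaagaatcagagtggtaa
Cd28, chr1:60759675-60759775: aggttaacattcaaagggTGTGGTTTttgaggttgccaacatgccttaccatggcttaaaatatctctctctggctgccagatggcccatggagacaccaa
Tigit, chr16:43655505-43655605: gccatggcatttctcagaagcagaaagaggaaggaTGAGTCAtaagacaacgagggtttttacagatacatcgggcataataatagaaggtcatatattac
Lck, upstream, chr4:129252545-129252645: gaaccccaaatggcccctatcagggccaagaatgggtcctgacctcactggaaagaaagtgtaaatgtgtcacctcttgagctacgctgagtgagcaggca
Lck, in Hdac1, chr4:129202706-129202806: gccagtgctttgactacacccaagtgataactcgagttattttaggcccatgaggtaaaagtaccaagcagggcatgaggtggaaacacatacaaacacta
Cd4, chr6:124844301-124844401: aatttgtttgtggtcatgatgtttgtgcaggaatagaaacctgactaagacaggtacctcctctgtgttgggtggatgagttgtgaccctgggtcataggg
The MEF2 consensus stood within the window in 1 of these 6, at Ctla4, where CTAATTTTAG spanned 60960139 to 60960148 and its first base lay 13 bp before the summit. The Cd28 window held the RUNX motif TGTGGTTT and the Tigit window the AP-1 match TGAGTCA. Neither of the Lck windows nor the Cd4 window held any of the motifs.

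Among the receptor-proximal kinases, Lck carried strong MEF2A peaks and Zap70 only 2 weak ones. Lck (chromosome 4, 129548344 to 129573641, mm10) had 11 peaks. The strongest in its own neighbourhood spanned 129575215 to 129575425, with its summit 1708 bp upstream of the TSS, in no protein-coding gene. Its signal was 234.1 and its rank 384. In replicate 1 the overlapping interval had a signal of 85.6 and ranked 450th, and in replicate 2 the values were 145 and 370th. A peak still stronger, with signal 319 (rank 112, 153rd in replicate 1 and 100th in replicate 2), was given to Lck by distance only: it lay 48130 bp downstream, inside Hdac1, which encodes a histone deacetylase, and its nearest TSS was that of Marcksl1.

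Peaks around the Lck start formed a run on both sides of it. Summits lay 3430 bp into the gene (signal 87.4, rank 3345) and 3719 bp (44.4), 6965 bp (114, rank 2005) and 10949 bp (64.0) upstream. The last 3 had the start of Fam167b as their nearest TSS. Other peaks given to Lck sat at the starts of neighbours, with summits 171 bp upstream of Hdac1 (46.1), 633 bp into it (29.0), 48 bp into Eif3i (27.6) and 7 bp into Iqcc (29.7). The replicates placed the peak 10949 bp upstream differently, 2431st in replicate 1 and 18017th in replicate 2. Lck is known to have a distal and a proximal promoter. RefSeq gave a second start 15269 bp inside the gene, and no summit lay within 1 kb of either start. The summit nearest to that second start lay 1705 bp downstream of it, with signal 25.1. That peak ranked 126740th in replicate 1 and 26031st in replicate 2.

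The 2 peaks of Zap70 (chromosome 1, 36761798 to 36782821) overlapped and lay 17009 and 16778 bp upstream, inside 4933424G06Rik. Their signals were 24.3 (rank 24783) and 8.64 (rank 30859). Both were overlapped by the same best intervals in the replicates, ranked 44565th in replicate 1 and 23078th in replicate 2. No summit lay inside Zap70 and the mm9 list gave it no peak.

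None of the peaks given to the CD3 genes was among the strongest 10%, and 5 of the 8 had the start of another gene as their nearest TSS. Cd3e (chromosome 9, 44998735 to 45009663) had 8 peaks and Cd3d (44981769 to 44987052), its neighbour, had 5. The strongest peak given to Cd3e, with signal 76.7 (rank 4199, 4478th and 6659th in replicates 1 and 2), lay 30991 bp upstream, 1690 bp from the start of Mpzl2. The strongest given to Cd3d (44.6, rank 10718) was shared with Cd3e and lay 14118 bp upstream of Cd3e. A peak of signal 30.5 lay inside Cd3d, 4942 bp from its start. No optimal summit lay inside Cd3e, although the conservative IDR set held intervals 2055 bp (signal 25.9) and 1788 bp (17.5) into it. In the mm9 list a peak 9585 bp upstream of Cd3e, weak at rank 16528, held TGAGTCA at its summit. A match to the MEF2 consensus, CTAAATATAG, began 48 bp after that summit and ran past the 50 bp window.

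The coreceptor genes differed from each other: Cd4 had a strong upstream peak and Cd8a had no peak. Cd4 (chromosome 6, 124864693 to 124888247) had 4 peaks. The strongest spanned 124894154 to 124894513, 6087 bp upstream of the TSS, with signal 107 and rank 2285. It ranked 2602nd in replicate 1 (signal 37.7) and 2131st in replicate 2 (71.7). The same peak was also given to Lag3, the neighbouring gene of an inhibitory receptor that binds MHC class II. The other 3 Cd4 peaks, with signals from 25.6 to 31.9, lay inside Mlf2, Gpr162 and P3h3, and none lay inside Cd4.

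Around Cd8a (chromosome 6, 71373427 to 71379171) the optimal, conservative and mm9 lists held no summit within 50 kb. The relaxed lists, which include background, had intervals there. The best in the pooled list ranked 91950th of 300000. In replicate 1 the best ranked 83113th, and in replicate 2 an interval 45705 bp downstream ranked 29702nd with signal 15.2. The nearest optimal peaks outside the limit lay 67733 bp (signal 27.5) and 91922 bp (72.4) downstream.

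The genes of the costimulatory and inhibitory receptors each carried a peak ranked 515th or better. Ctla4 (chromosome 1, 60909025 to 60915832) had 16, a number reached by 1.08% of all genes. The strongest spanned 60903205 to 60903378, 5721 bp upstream, with signal 208 and rank 515. It ranked 630th in replicate 1 (signal 74.2) and 464th in replicate 2 (135). Flanking summits lay 9540 bp (79.1) and 6311 bp (77.4) upstream and 4508 bp into the gene (93.6, rank 2974). Between 27270 and 32456 bp downstream 5 more summits had signals from 25.9 to 86.8, and their nearest TSS was that of Icos, which encodes another costimulatory receptor. Farther upstream, between 40442 and 48273 bp, stood 4 peaks with signals from 19.5 to 51.5. At the promoter itself, 85 bp upstream, the peak was weak (23.0, rank 25896) and uneven, 54216th in replicate 1 and 11733rd in replicate 2.

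Cd28 (chromosome 1, 60746388 to 60773359) had 7 peaks, and none was given to any other gene. The strongest stood alone 43510 bp upstream, at 60702783 to 60702987 in no protein-coding gene, with signal 259 and rank 278. It ranked 258th in replicate 1 (signal 106) and 321st in replicate 2 (152). In the mm9 list the peak 43477 bp from a Cd28 TSS, whose sequence is shown above, ranked 335th of 16839. A match to the MEF2 consensus, CTATTTTTAA at 60759850 to 60759859, began 125 bp from the summit, outside the window shown. It was found by searching the whole peak interval, where 10.3% of all mm9 peaks held a match. Inside Cd28 lay 5 peaks, the strongest 15323 bp from the start (73.0, rank 4607). A weak peak 15526 bp from the start (21.8, rank 26923) overlapped it, and both took the same best intervals in the replicates. A promoter peak 96 bp upstream (33.6) ranked 11258th in replicate 1 and 40461st in replicate 2, the reverse of the order at the Ctla4 promoter.

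Tigit (chromosome 16, 43626137 to 43665125) had 11 peaks, given to no other gene, 6 of them inside it. The strongest spanned 43655388 to 43655530, 9664 bp into the gene, with signal 232 and rank 396. It ranked 456th in replicate 1 (signal 85.0) and 324th in replicate 2 (152). Further summits lay 3355 bp (135, rank 1448) and 11668 bp (107, rank 2309) into the gene. A group of 5 lay from 25226 to 34370 bp upstream, with signals from 16.3 to 76.4. The weakest of these had no overlapping interval in replicate 1, the only such case among the 59. The summit nearest to the start had a signal of 36.2 and lay 423 bp upstream of the RefSeq transcript start.

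**Figure D1:**
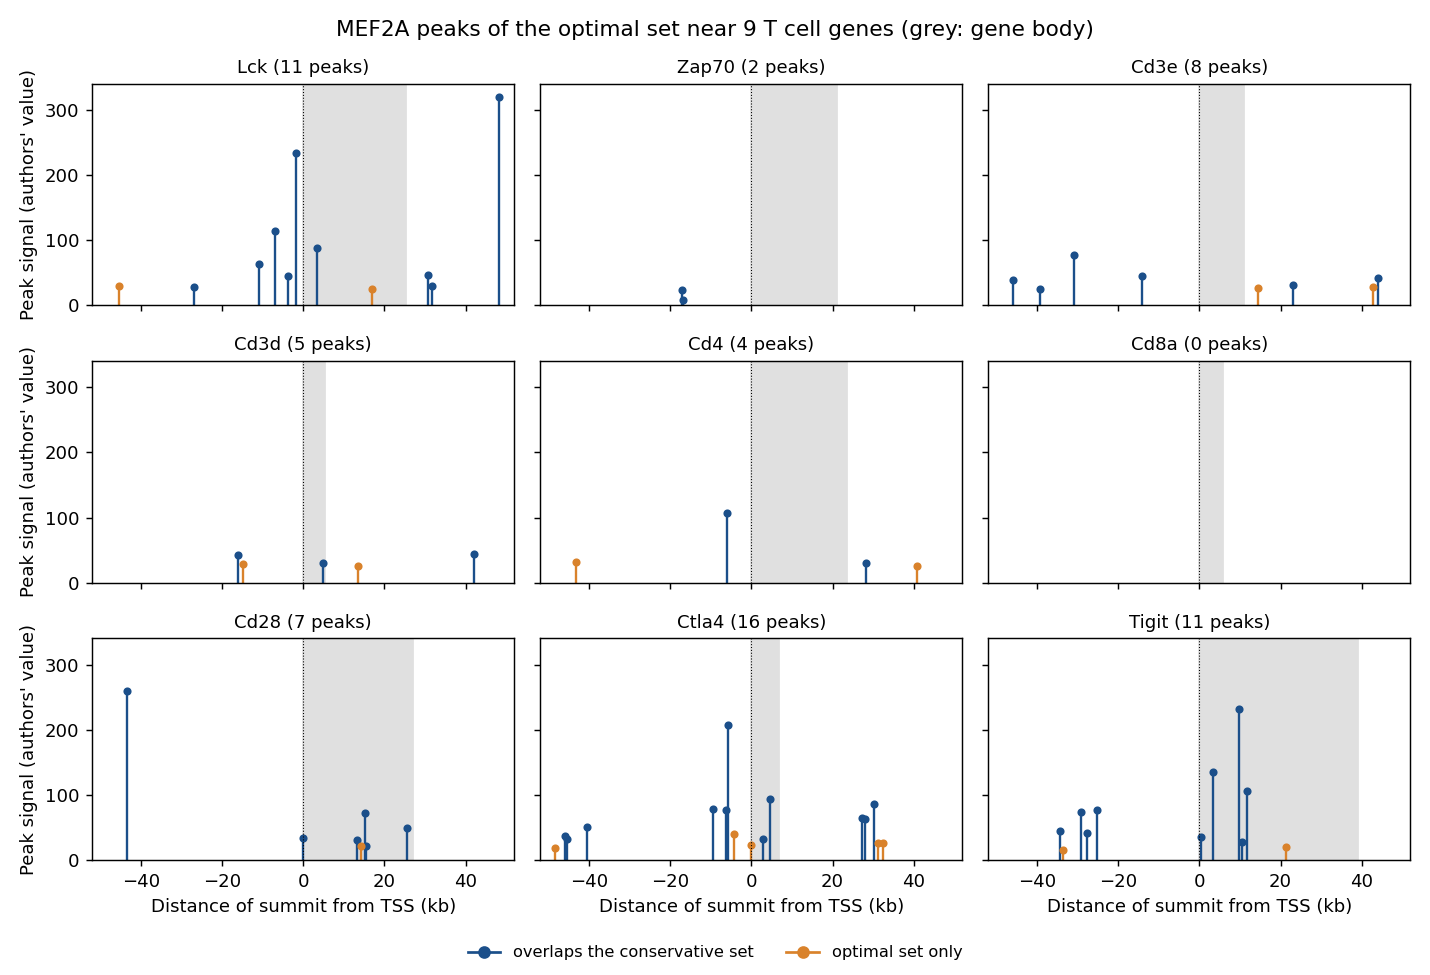
Signal of each optimal peak (vertical axis, the authors' value) by the distance of its summit from the TSS (horizontal axis, kb, negative is upstream) for each of the 9 genes. Tall stems stand in the panels of Lck, Cd28, Ctla4 and Tigit, while the Cd8a panel is empty and Zap70 has 2 short stems of 24.3 and 8.64. The tallest, 319, lies 48130 bp downstream of the Lck TSS, inside Hdac1.

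Most of the 59 peaks were away from the starts of the 9 genes, and some lay at the starts of others, such as Hdac1, Iqcc, Eif3i, Mlf2 and Ube4a. Of them 31 lay in no protein-coding gene, 16 inside a member to which they were given and 12 inside another protein-coding gene. For 37 the nearest TSS was that of a member, and 32 were also given to another gene. All 11 Lck peaks and all 4 Cd4 peaks were shared in this way, while none of the 7 Cd28 and 11 Tigit peaks was. A summit lay within 1 kb of the outermost TSS in 3 of the 9 genes, Ctla4, Cd28 and Tigit, against 28.4% of all genes, and these 3 peaks had signals from 23.0 to 36.2.

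By the rule 8 of 9 had a peak, against 68.5% of protein-coding genes. Within 10 kb of the TSS the count was 6 of 9, against 42.6%. A peak among the strongest 10% of the list (rank 3149 or better) was given to 5 of 9, Lck, Ctla4, Cd4, Cd28 and Tigit, against 15.2%. The 9 genes had a median of 7 peaks and all genes a median of 2, with Cd8a at 0, Zap70 at 2 and Cd4 at 4. These counts depend on gene length and on neighbours, since close genes share peaks, and no test of the list was made. The list was chosen with earlier results of these data known, so the counts do not show an excess over all genes. On mm9, 7 of 9 had a peak by the rule (54.6% of genes there), all but Cd8a and Zap70. Within 10 kb it was 4 of 9 (26.5%), Lck, Cd4, Cd3e and Tigit. Cd3e was counted there by its weak peak of rank 16528 alone, and had no optimal peak within 10 kb on mm10. The mm9 gene model of Ctla4 begins farther upstream than that of mm10, and its strongest mm9 peak (rank 463) lay 5717 bp from the nearest Ctla4 transcript start.

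**Figure D2:**
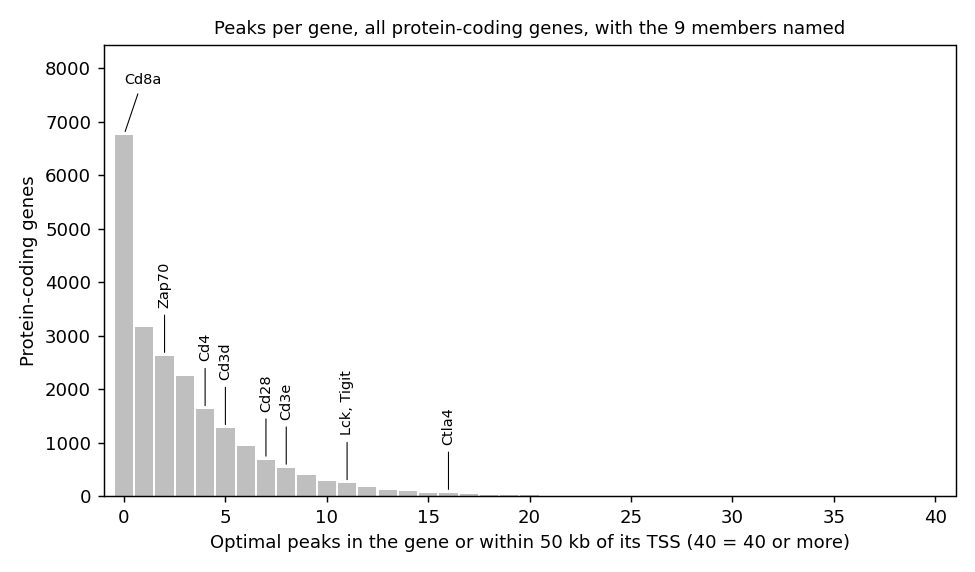
Number of protein-coding genes (vertical axis) by the number of optimal peaks given to each (horizontal axis), with the 9 genes named at their counts. Cd8a sits in the bar at 0 and Ctla4, with 16, far to the right.

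The strongest peaks ranked high in each replicate, which follows in part from their choice by rank in a list made from both. Their ranks were not equal: the Tigit peak of rank 2309 was 4191st in replicate 1 and 1922nd in replicate 2. The 10 peaks of the strongest 10% ranked 4191st or better in replicate 1 and 4091st or better in replicate 2. Of all 59, 58 were overlapped by an interval in both replicate lists, which include background. By a stricter count, 40 were overlapped by an interval among the 31497 strongest of each. The same was true of 43 in replicate 1 and of 53 in replicate 2. These counts were not made over all 31497 peaks, so they do not set the member peaks apart from the list. Over the 58, Spearman's rho between the replicate signals was 0.74, a description over peaks that were all chosen by the pooled call. Overlapping peaks at Zap70 and at Cd28 took the same replicate intervals and were counted separately. Examples that differed were the peaks 4351 bp upstream of Ctla4 (44619th in replicate 1 and 8993rd in replicate 2) and 16149 bp upstream of Cd3d, 5 bp from the start of Ube4a (39847th and 10106th).

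**Figure D3:**
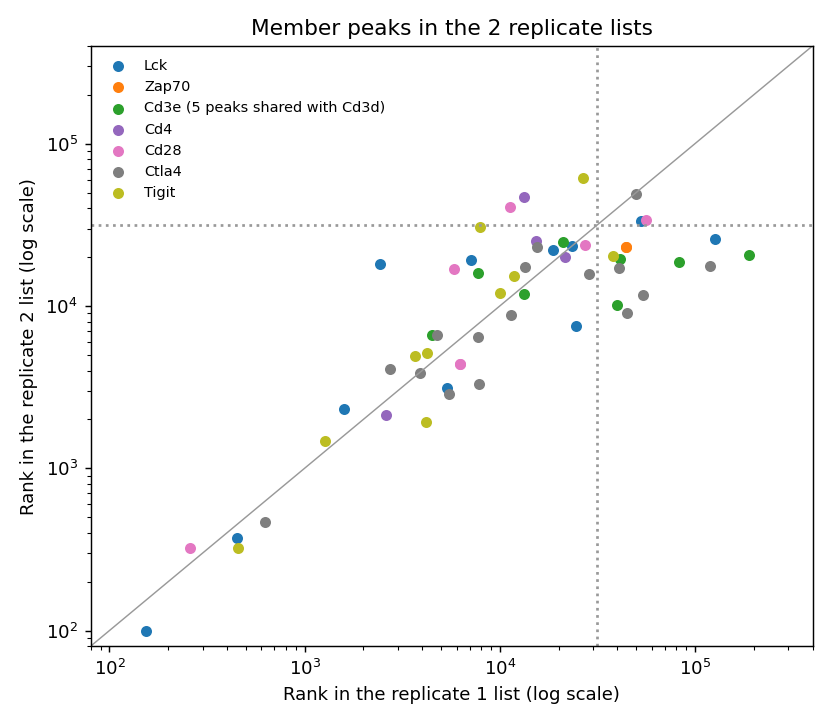
Rank of the best overlapping interval in replicate 1 (horizontal axis) and replicate 2 (vertical axis), both on log scales, for the 58 peaks found in both lists, coloured by gene. The strongest peaks, such as those ranked 153rd and 100th, lie near the line of equal rank, and the weaker ones spread about it; dotted lines mark rank 31497.

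The motifs stood at member peaks in counts too small to set apart from all peaks. On mm9, 36 peaks were given to the genes. Within 50 bp of the summit the MEF2 consensus stood in 1 of 36 (2.78%, against 7.13% of all 16839 peaks). Over the whole interval of each peak, an alternative chosen after seeing the data, it stood in 4 of 36 (11.1%, against 10.3%), so the order of the shares turned. AP-1 (TGANTCA) stood in 3 (8.33%, against 12.2%) and the E-box CAGGTG in 3 (8.33%, against 10.1%). The octamer ATGCAAAT, RUNX (TGTGGTTT) and ETS (CCGGAAGT) motifs stood in 1 each (2.78%, against 3.12%, 2.83% and 1.61%), the octamer at the Tigit peak of rank 2498. PU.1 (GAGGAAGT), NF-kB and AGATAAG, a form bound by GATA factors, stood in none, against 3.24%, 1.33% and 0.736%. A stricter symmetric MEF2 form, which overlaps the consensus, stood in 1, the Ctla4 peak, against 5.89%. Both strands were searched for exact matches, and with 36 peaks a difference of 1 or 2 peaks is not interpretable. None of the 10 motifs was found in 26 of the 36 (72.2%, against 61.7%). Median GC content of the windows was 47.0% at member peaks and 49.5% at all peaks.

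Other genes of the T cell programme, 45 in a fixed list of receptors, adaptors, kinases and transcription factors, also included genes with strong peaks and genes with none. By the rule 39 of 45 had a peak, against 68.5% of all genes, and within 10 kb of the TSS 27 of 45, against 42.6%. A peak among the strongest 10% was given to 17 of 45, against 15.2%. Strong peaks lay 1074 bp upstream of Pdcd1, an inhibitory receptor (signal 258, rank 282), 15541 bp upstream of Cd6 and inside Slc15a3 (244, rank 337), and inside Lef1, a transcription factor (222, rank 434). Of the 6 genes with no peak, Cd226, Sh2d1a, Themis and Bcl11b are named by order in the list. Cd3g, Icos and Lag3 in this list share peaks with the 9 genes, so the counts are not independent.

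In the B cell counterparts of the 9 genes, 13 in all, each had a peak, against 68.5% of all genes, and 8 had a peak among the strongest 10%, against 15.2%. Lyn, a SRC family kinase, had the strongest (444, rank 8, 43615 bp into the gene). It was followed by Cd80 (295, rank 169, 49585 bp upstream and inside Pla1a), Cd22 (220, rank 441) and Cd86 (217, rank 461); CD80 and CD86 are the ligands of CD28 and CTLA4. Syk, the relative of Zap70, had 15 peaks against 2. Its strongest peak (54.1, rank 7743) was weaker than the strongest of Lck, Cd28, Ctla4, Tigit, Cd4 and Cd3e. Among the signalling chains Cd79b had a peak of signal 214 and Cd79a one of 63.0, against 76.7 at most for the CD3 genes. With genes without a peak placed last, the median rank of the strongest peak was 2285 for the 9 genes, 4366 for the other T cell genes, 1638 for the B cell counterparts and 14070 for all genes. The lists were chosen with earlier results of these data known and were not tested against each other.

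**Figure D4:**
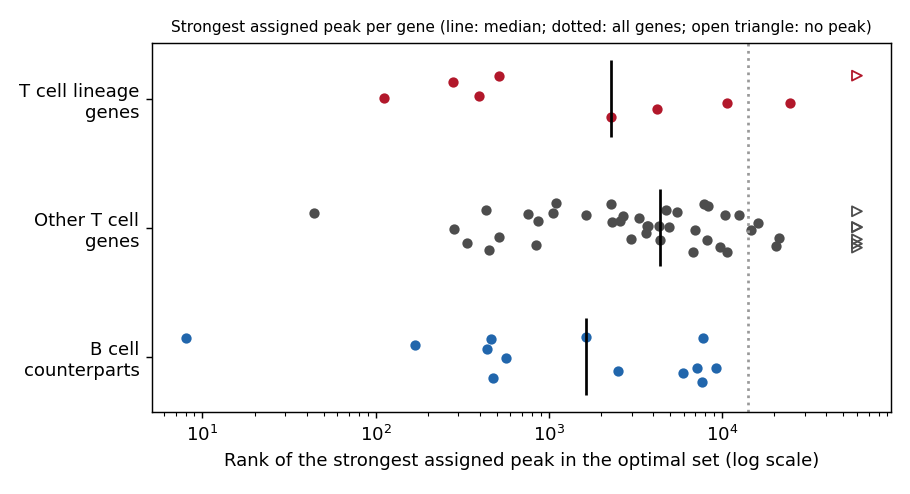
Rank of the strongest peak given to each gene (horizontal axis, log scale) for the 9 genes, the 45 other T cell genes and the 13 B cell counterparts; bars are medians over the list, the dotted line is the median of all genes, and open triangles are genes with no peak. All 3 list medians lie to the left of the dotted line, and the ranges overlap.

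The window decided some of these assignments. Just inside it lay the Lck peak in Hdac1 (48130 bp) and a Ctla4 peak 48273 bp upstream (signal 19.5). Just outside lay a peak 51843 bp upstream of Zap70 (42.8) and one 54904 bp upstream of Ctla4 (22.9). The 3 strongest between 50 and 100 kb were a peak 58973 bp downstream of the Cd28 start (94.2, rank 2939), the Mpzl2 peak 58885 bp from Cd3d (76.7) and the peak 91922 bp downstream of Cd8a (72.4).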

How the data were processed

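MEF2A ChIP-seq peak lists of 2 biological replicates of CH12.LX were used, 5 lists on mm10 and 1 on mm9. Per the README texts deposited with the samples, each replicate and the pool has a relaxed list of 300000 intervals called against a control, from which the optimal set (31497) and the conservative set (28217) were made; the mm9 list (16839) came from both mm9 alignments. Peak caller and aligner: not given in the sources used here. Each peak's signal value and the q-value column, treated as a score because it falls below 0 and used only to break ties, are as deposited by the authors. Peaks were thus called both per sample and on pooled samples, and read depth is unknown.

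Genes and TSSs on mm10 came from RefSeq (GRCm38.p6): the outermost TSS was used, with strand from the RefSeq promoter table for 17492 genes and from GENCODE vM1 by symbol for 3972, so that 98.1% of 21887 genes were usable. The builds were never converted. On mm9, GENCODE vM1 genes and NCBIM37 sequence were used, with symbols held by more than 1 gene left out (Syk among them). Peaks overlapped when they shared 1 bp. Coordinates are 1-based. Tables were handled with pandas 2.3.3 and numpy 2.4.6 in Python 3.11.15, Spearman's rho was computed with scipy 1.17.1, and plots were drawn with matplotlib 3.10.9. The assignment rule was tested on 200 genes with simulated summits and placed all correctly. Member genes, lists and the rule for named genes (all 9 members, their strongest peaks and those in the strongest 10%, the 4 strongest and up to 4 without a peak in each list) were chosen with earlier results of these data known; 1 gene that the rule would name is not reported here. Alternatives were other peak lists, windows, TSSs and overlap rules.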

Additional observations from a re-analysis of the deposited data

How the results depend on the processing

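Most of the 47 comparisons of a count with its value under another setting were counts of genes with a peak. Counts of 8 of 9, 39 of 45 and 13 of 13 were at or near their ceiling and could not rise 1.5 times. That 43 of the 47 stayed within 1.5 times is therefore no measure of robustness. The exceptions were the number of peaks given to the 9 genes, 59 in the main setting. It was 33 with the stronger 50% of the optimal set, 36 in the mm9 list and 26 within 10 kb of the TSS or in the gene. The number of member peaks with the MEF2 consensus went from 1 within 50 bp of the summit to 4 over the whole interval (11.1%, against 10.3% of all mm9 peaks), an alternative chosen after seeing the data. The settings other than mm9 search fewer peaks, a shorter window or more sequence by construction. The mm9 list also holds fewer peaks, 16839 against 31497. It differs in build and gene models too, and the cause of its count was not tested. Using only 1 replicate, at the size of the optimal set, gave a peak to 9 genes without replicate 1 and to 7 without replicate 2, and 69 and 60 peaks. The optimal and conservative sets are not nested: 81.7% of conservative intervals are in the optimal set, and 13 intervals near the genes, 7 of them at Tigit, are in the conservative set alone. Read depth is unknown, so a gene without a peak, such as Cd8a, is without one at the thresholds of these lists only.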
